A study of Mus musculus with 6 samples.

Results

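The 2 arrays labelled Ovol1 KO were compared with the 2 control arrays of a study of mouse epidermal keratinocytes, which makes 4 of its 6 arrays. They were chosen by their titles alone. The cells came from the skin of C57BL/6 embryos at E18.5, all labelled female, and were grown for 2 to 5 days without added calcium, the signal that drives keratinocytes to differentiate. Each array held RNA pooled from 2 mice. Per the labels, control mice were Ovol2flox/+; Ovol1+/- or carried Ovol2flox/+ with K14-Cre, a recombinase driven by the keratin 14 promoter of basal keratinocytes. A control array can therefore hold cells with a single working Ovol1 copy, and no label says which control genotype an array holds. The Ovol1 KO label stands for Ovol1-/- mice, with no Ovol2 genotype stated. The remaining 2 arrays, Ovol1/2 DKO (Ovol2flox/-;K14-Cre on Ovol1-/-), are not compared here; they entered the estimate of spread in the statistical model and the choice of 1 probe set per gene, and their Ovol1 signal is given for the check of the label. In all, 19938 named genes were measured on every array, and a level below is log2(intensity + 16) of a gene's probe set.

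Ovol1 is a zinc finger transcription factor that acts mainly as a repressor. In the epidermis it is found above the basal layer, where it is known for holding back proliferation as cells begin to differentiate, and Myc and Id2 are among the genes it was earlier reported to repress. Its relative Ovol2 acts in the same tissue and restrains mesenchymal genes such as Zeb1. Epidermal keratinocytes divide in the basal layer and then pass through spinous and granular stages, which end in the cornified envelope, a shell of cross-linked protein and lipid.

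Ovol1 was read first, because it tests the label. The control arrays read 9.64 and 9.95, labelled Ovol1 KO replicate 1 read 10.75 and replicate 2 read 9.80. Neither labelled array lay below both controls. The difference, labelled Ovol1 KO minus control throughout, was 0.48 (SE 0.34, 95% interval -0.33 to 1.29, n = 2 per group, limma adjusted p = 0.999), and it was 0.00 without labelled Ovol1 KO replicate 1. The same probe set read 5.96 and 6.22 on the Ovol1/2 DKO arrays, near background, so it can fall on arrays that carry the Ovol1-/- label. The loss of Ovol1 was thus not seen in the arrays labelled Ovol1 KO, although its position relative to the deleted part is not known here. Every direction below rests on a label that this signal goes against. Ovol2 read 8.37 and 6.97 in control against 7.88 and 8.38 in the labelled arrays, a difference of 0.46 (SE 0.45), which became -0.24 without control replicate 2, 1.16 without control replicate 1, and 1.41 without both replicate 1 arrays.

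Sex-linked genes set both replicate 1 arrays apart, against the female label. Xist, which coats and silences one X chromosome in female cells, stood at 4.43 in control replicate 1 and 4.54 in labelled Ovol1 KO replicate 1, but 11.24 and 10.99 in the replicate 2 arrays. The Y-linked genes Eif2s3y (13.80), Kdm5d (13.61) and Uty (9.95) were high in labelled Ovol1 KO replicate 1 alone and at most 5.14, 7.58 and 4.91 on the other 3 arrays. Control replicate 1 thus had neither signal. Some of the results below, but not all, are also given without 1 or both of these arrays. Median intensities of the 4 arrays ran from 103.3 to 109.8.

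**Figure D1:**
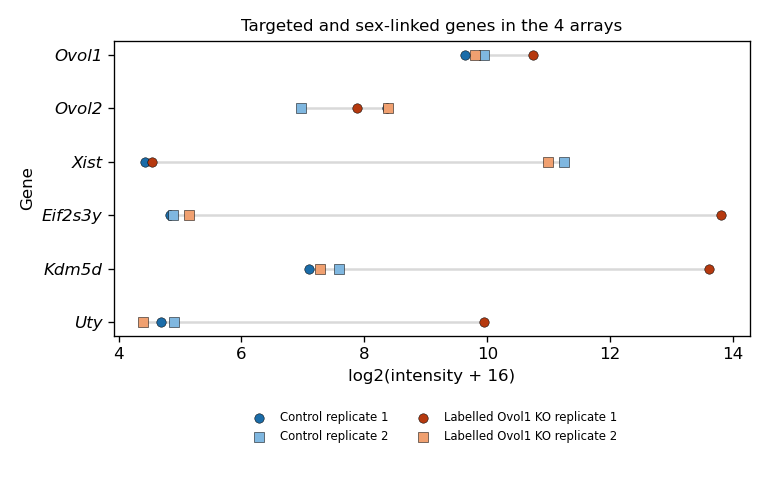
Level, log2(intensity + 16), of the targeted genes Ovol1 and Ovol2 and of 4 sex-linked genes on each of the 4 arrays; each point is 1 array and the grey line spans the 4 values. Ovol1 in the labelled arrays (10.75 and 9.80) is not below control (9.64 and 9.95), Xist is low on both replicate 1 arrays, and the Y-linked genes are high only in labelled Ovol1 KO replicate 1.

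No gene passed the test between the groups. With limma, 0 of 19938 genes were higher and 0 lower at an adjusted p under 0.05 (0% in each direction), and the smallest adjusted p was 0.999. Without adjustment, 153 genes (0.767% of those tested) had p under 0.05, 63 higher and 90 lower. An exact permutation of 2 arrays against 2 cannot reach that threshold, since its smallest two-sided p is 1 in 3. The absence of calls does not show that the groups were alike. The 95% intervals say how much could have been missed: for 15379 genes (77.1%) the interval lay wholly within a 2-fold difference in either direction, and for 19535 (98.0%) within 4-fold. The all-gene shares include dim genes, whose changes are understated on this scale. For the 10245 genes whose higher group mean was at or above the median level, they were 69.1% and 96.9%. These intervals are for each gene alone, without adjustment for the number of genes.

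Arrays of the same group differed about as much as arrays of different groups. The median absolute log2 difference per gene was 0.278 between the 2 control arrays and 0.330 between the 2 arrays labelled Ovol1 KO. Across groups it was 0.188 between the replicate 2 arrays, 0.195 between the replicate 1 arrays, 0.221 between control replicate 2 and labelled Ovol1 KO replicate 1, and 0.374 between control replicate 1 and labelled Ovol1 KO replicate 2. So 3 of the 4 pairs taken across the groups were closer than either pair within a group. More than 2-fold differences were found for 1001 genes between the controls and 1209 between the labelled arrays, while pairs across the groups gave 237 (both replicate 2), 615 (control replicate 2 and labelled replicate 1), 935 (both replicate 1) and 1540 (control replicate 1 and labelled replicate 2). Group means differed more than 2-fold for 106 genes, and more than 4-fold for 5. The difference between group means was larger than both within-group differences for 1918 genes, of which 951 were higher (4.77% of all genes) and 967 lower (4.85%). It was smaller than the difference between the control arrays for 72.0% of genes, although a mean of 2 arrays varies less than a single array.

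**Figure D2:**
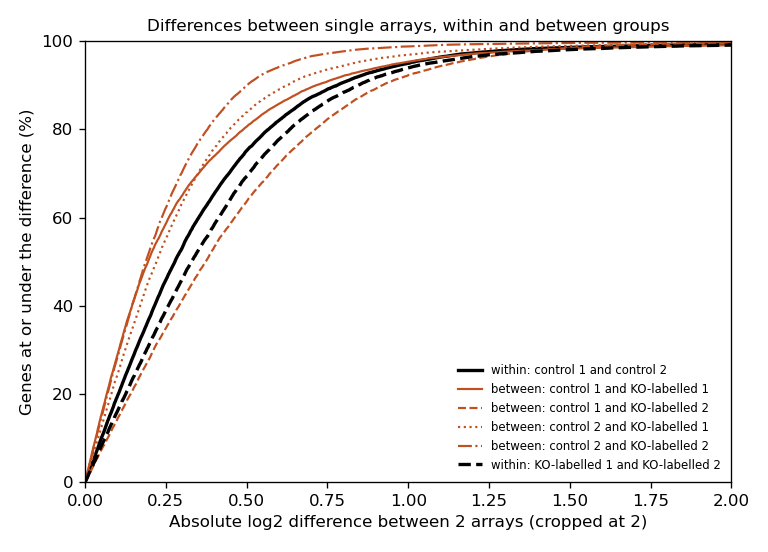
Share of the 19938 genes (vertical axis, %) whose absolute log2 difference between 2 arrays lies at or under the value on the horizontal axis, which is cropped at 2; black lines are the pairs within a group and orange lines the pairs across groups. The black lines (medians 0.278 and 0.330) lie among the orange lines (medians 0.188 to 0.374), not to their left.

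The 2 groups did not overlap, with both labelled arrays above or below both controls, for 1759 genes on the higher side (8.82%) and 2053 on the lower side (10.3%). These shares over all genes stand beside every count of non-overlapping genes below. Among the genes earlier tied to Ovol factors, Myc, a driver of growth, read 12.06 and 11.004 in control and 11.31 and 11.09 in the labelled arrays (difference -0.33, SE 0.38). Id2, an inhibitor of differentiation factors, read 8.40 and 9.41 in control and 9.57 and 9.31 in the labelled arrays (difference 0.53, SE 0.34). For both genes, the 2 groups overlapped, and control replicate 1 lay apart from the other 3 arrays. Vim, an intermediate filament of mesenchymal and migrating cells, read 11.13 and 9.92 in control and 8.39 and 9.82 in the labelled arrays. Its groups did not overlap, but replicate 2 of each group differed by only -0.10, and the difference of -1.42 (SE 0.54, 95% interval -2.72 to -0.12) did not pass (limma adjusted p = 0.999).

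Transcription factors of epithelial-mesenchymal transition showed no separation. None of the 12 measured had groups that did not overlap, and their median difference was -0.08, against -0.00 over all genes. Zeb1, a repressor of epithelial genes, read 6.06 and 6.13 in control and 5.88 and 6.29 in the labelled arrays, near background in both groups (6.20 is the highest median of unnamed probe sets on an array). Its difference of -0.01 had a 95% interval of -0.53 to 0.50. Zeb2 (-0.24, SE 0.28) was near background too, while Snai1 (0.03, SE 0.24) and Snai2 (-0.36, SE 0.32) were above it. Mesenchymal and matrix genes leaned lower, with 13 of 16 differences below 0 and a median of -0.28, and labelled Ovol1 KO replicate 1 was the low array. Vim, Sparc and Cd44 were lower without overlap, Vim by only 0.099 and Cd44 by only 0.037. Fn1, which encodes fibronectin, read 9.65 there and 10.69, 11.35 and 11.70 on the other 3 arrays, and Ccn2, a matricellular protein, 9.98 against 11.66 to 12.07. All 16 genes were lower in replicate 1 than in replicate 2 of the labelled group. Without replicate 1 the median was 0.21, with 12 of the 16 above 0.

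Epithelial junction genes ranged from steady to widely spread. Cdh1, the epithelial cadherin, read 12.74 and 12.42 in control and 12.67 and 12.50 in the labelled arrays, and its difference of 0.01 had a 95% interval of -0.56 to 0.57. Of 19 adherens junction and desmosome genes, 16 had an interval within a 2-fold difference in either direction, beside 77.1% of all genes. Without overlap, 2 were higher and 3 lower, beside 8.82% and 10.3% of all genes. The list median was 0.02. Cldn1 and Ocln, barrier proteins of tight junctions, differed by 0.03 (SE 0.25) and 0.01 (SE 0.32), while the gap junction genes Gjb2 (10.13 and 7.51) and Gjb6 (9.47 and 6.19) lay far apart in the labelled arrays. Among 19 genes of epithelial identity, Epcam, an adhesion molecule, differed by 0.08 (SE 0.22) and the splicing regulator Esrp1 by 0.04 (SE 0.24). Spint2, an inhibitor of membrane proteases, was the one member without overlap (11.27 and 11.39 against 11.75 and 11.55; difference 0.32, SE 0.21). The differences of 16 of the 19 lay above 0, at a median of 0.19. Without labelled Ovol1 KO replicate 1, 11 lay above 0 at a median of 0.04, and without both replicate 1 arrays 8 did at a median of -0.01; the list's mean level was 10.77 and 10.85 in control and 11.16 and 10.88 in the labelled arrays.

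Of 16 basal layer genes, 7 were lower without overlap (Itga6, Itga3, Itgb1, Col17a1, Dst, Lama3 and Lama5, which join the basal layer to its matrix), beside 10.3% of all genes. The gap was only 0.001 for Col17a1. Bcl11b was higher, and the list median was -0.25. Itga6, a laminin receptor subunit of hemidesmosomes, read 12.06 and 11.88 in control and 11.57 and 11.46 in the labelled arrays (difference -0.46, SE 0.20, 95% interval -0.94 to 0.02). Dst, a hemidesmosome plakin, read 9.78 and 9.37 against 9.09 and 9.14 (-0.46, SE 0.22). In both, the difference exceeded the spread within each group. Among the basal keratins, Krt5 differed by -0.01 (SE 0.19) and Krt14 by -0.05 (SE 0.19), each with the groups overlapping. No basal gene passed the test, and without labelled Ovol1 KO replicate 1 the list median was -0.08. Genes at or above the median level leaned lower in general, with 62.6% of these 10245 genes below 0, at a median of -0.08.

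Of 9 spinous genes, 8 had a difference above 0, at a median of 0.24; without labelled Ovol1 KO replicate 1, 5 did at 0.17, and without both replicate 1 arrays 5 did at 0.09. Krt1 and Krt10, the keratin pair made as cells leave the basal layer, lay higher on both labelled arrays. Krt1 read 9.03 and 9.21 there against 8.84 and 8.81, and Krt10 8.43 and 8.14 against 7.90 and 8.04. Their differences of 0.29 (SE 0.19) and 0.31 (SE 0.20) did not pass. In this list, 4 genes were higher without overlap (Krt1, Krt10, Notch3 and Krt77), beside 8.82% of all genes, and Serpinb2 was lower. Krt77 was separated by only 0.026. Notch3, a receptor of the pathway that promotes spinous fate, read 7.76 and 8.16 in control and 8.75 and 8.25 in the labelled arrays (0.54, SE 0.26). Krtdap, a secreted keratinocyte protein, shows the spread that a difference of 0.05 can hide: it read 9.72 and 8.80 in control and 11.72 and 6.91 in the labelled arrays.

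Granular and cornified genes were high on 1 array of each group and low on the other. Their mean level over 26 genes was 8.35 and 9.95 in control and 10.10 and 8.70 in the labelled arrays. Lce1a1, a late cornified envelope protein, read 6.18 and 12.16 in control and 12.12 and 6.15 in the labelled arrays, so the group means differed by -0.03 across a range of near-background to bright. Hrnr (hornerin) read 6.38 and 9.71 against 10.82 and 7.23, and Casp14, the protease of terminal differentiation, 8.47 and 9.62 against 11.01 and 8.25. High levels were thus in control replicate 2 and labelled Ovol1 KO replicate 1. Control replicate 1 was the higher control for only 3 of the 26 genes, against 54.6% of all genes, while labelled Ovol1 KO replicate 1 was the higher labelled array for 22, against 53.2%. Sprr2d and Sprr2e, envelope precursors, departed from this: both labelled arrays were high (12.91 and 12.95 for Sprr2d) and control replicate 1 alone was low (9.96, against 13.34 in replicate 2). Probes of the near-identical Sprr and Lce genes may read one another's transcripts, which was not tested. Only 1 of the 26 was higher without overlap (Krt2) and 1 lower (S100a3). The mean of Krt2 was 5.92 in control and 6.20 in the labelled arrays, beside a background of 6.20. The list median of 0.29 depended on the arrays, at -0.35 without control replicate 1 and -0.44 without labelled Ovol1 KO replicate 1, and at 0.76 and 0.94 without the respective replicate 2.

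Enzymes and transporters of barrier lipids were highest in labelled Ovol1 KO replicate 1. Acer1, a ceramidase of the upper epidermis, read 10.62 there and 6.46, 7.84 and 6.67 on the other 3 arrays. Sdr9c7, which acts on the lipids bound to the envelope, read 11.06 against 7.31, 9.28 and 7.03, and Abca12, the lipid transporter of lamellar granules, 12.05 against 11.36, 11.61 and 10.99. Over the 18 genes the level was 9.30 and 9.87 in control and 10.72 and 9.13 in the labelled arrays, the labelled pair lying farther apart than the means of the groups. Their median difference of 0.22 became -0.40 without labelled Ovol1 KO replicate 1 and -0.55 without both replicate 1 arrays. None was higher without overlap and 1, the fatty acid elongase Elovl6, was lower.

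**Figure D3:**
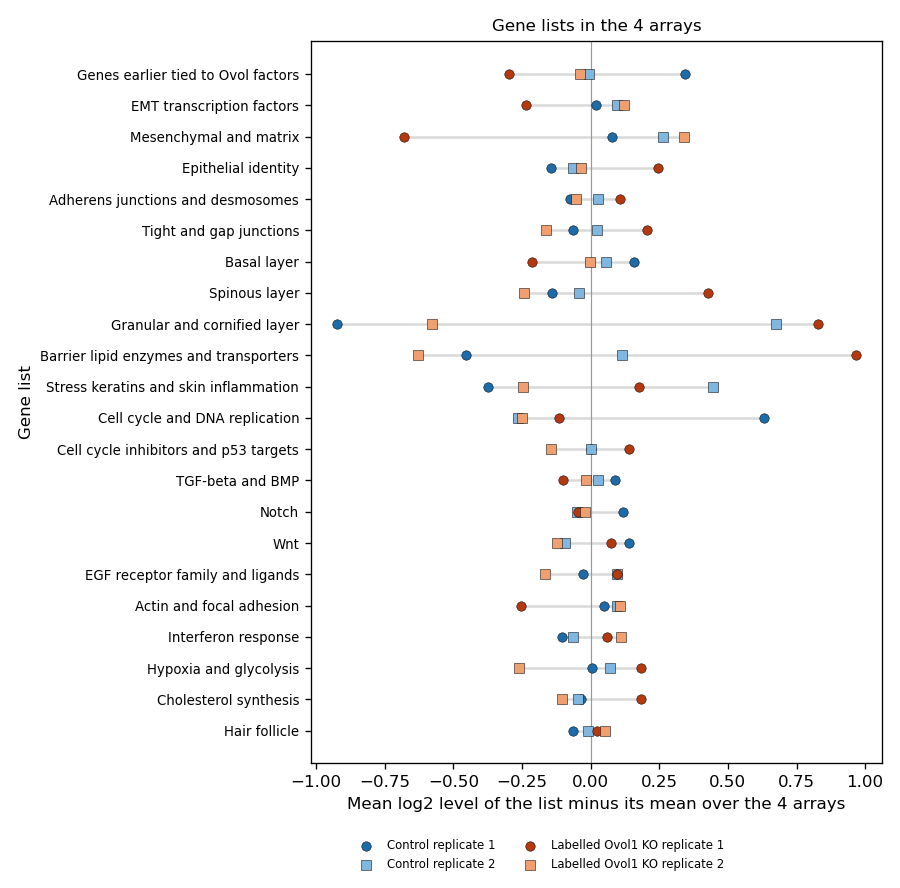
Mean log2 level of each of 22 gene lists on each of the 4 arrays, minus the list's mean over these arrays; each point is 1 array and the grey line spans the 4 values. The widest spreads, in the granular and cornified, barrier lipid, mesenchymal and cell cycle lists, lie within the groups, with 1 control or 1 labelled array at an end.

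Cell cycle genes were highest in control replicate 1. All 33 measured genes had a difference below 0, at a median of -0.38, and in all 33 control replicate 1 was above control replicate 2. Mki67, a marker of dividing cells, read 10.42 and 9.84 in control and 9.79 and 9.59 in the labelled arrays. Mcm3, a subunit of the replicative helicase, read 10.15 and 9.09 against 9.02 and 9.03. The other 3 arrays were thus close to one another, and without control replicate 1 the list median was 0.09, with 21 of the 33 genes above 0. Groups did not overlap for 4 genes (Mki67, Top2a, Ccne2 and Mcm3), all lower, beside 10.3% of all genes, and none passed. The gap was only 0.041 for Mki67 and 0.009 for Top2a, whose dimmer second probe set overlapped. Among cell cycle inhibitors, Cdkn1b differed by 0.13 (SE 0.23) and Cdkn1c by 0.26 (SE 0.37), with the groups overlapping; a dimmer second probe set of Cdkn1b gave -0.21.

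Keratins and cytokines of stressed skin divided into steady and variable genes. The stress keratin Krt6a read 12.94 and 12.88 in control and 12.93 and 13.01 in the labelled arrays (difference 0.06, SE 0.20), while its partner Krt16 read 11.22 and 11.05 against 12.02 and 10.12. S100a8, an alarmin subunit, read 6.96 and 10.58 in control and 9.53 and 8.37 in the labelled arrays, with control replicate 1 the lowest, as for the cornified genes. The neutrophil chemokines went another way, with labelled Ovol1 KO replicate 1 alone low: Cxcl1 read 10.27 there and 11.84 to 11.99 elsewhere, and Cxcl5 9.14 against 10.87 to 11.60. Control replicate 1 alone was high for Ccl20 (9.50, against 7.08 to 7.43) and for the epithelial cytokine Tslp (10.46, against 6.08 to 8.07). No gene of the 24 was higher without overlap, and 3 were lower (Ptgs2, Il24 and Hbegf), beside 8.82% and 10.3% of all genes. The list median of 0.05 was -0.39 without both replicate 1 arrays.

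No gene of the signalling lists passed. For comparison with the counts here, 8.82% of all genes were higher and 10.3% lower without overlap. The EGF receptor family had 3 of 11 genes lower without overlap, all ligands, and none higher. Its median was -0.05, and -0.27 without both replicate 1 arrays. Epgn, which encodes the ligand epigen, read 11.28 and 11.16 in control and 10.44 and 10.62 in the labelled arrays (difference -0.69, SE 0.21, 95% interval -1.18 to -0.20, limma adjusted p = 0.999). Hbegf (-0.37, SE 0.33) and Ereg (-0.41, SE 0.28) were the other ligands, and the receptor Egfr differed by -0.22 (SE 0.22) with overlap. Among 18 Notch genes, the target Hes1 read 9.91 and 9.74 against 9.02 and 9.41 (-0.61, SE 0.23), the receptor Notch1 11.01 and 10.42 against 10.30 and 10.22, and the DNA-binding partner Rbpj 9.87 and 9.56 against 9.41 and 9.37. These 3 were lower without overlap, Notch3 and the near-background Hey2 higher, and the list median was 0.01. A second, near-background probe set of Rbpj overlapped (-0.035). Of 26 TGF-beta and BMP genes, 5 were lower without overlap and none higher. They included the signal mediator Smad3 (-0.31, SE 0.23), the BMP target Id3 (-0.49, SE 0.22) and Ltbp1, a latent TGF-beta binding protein (-0.80, SE 0.34). Smad3 was separated by only 0.045. The list median was -0.11, and the ligand Tgfb1 differed by -0.07 (SE 0.24). Of 27 Wnt genes, Fzd1 was higher without overlap and Fzd6 and Lrp6 were lower, at a list median of -0.04.

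Interferon response genes gave 6 of 19 higher without overlap and none lower, beside 8.82% and 10.3% of all genes. The same shares stand beside the other lists of this paragraph. Irf7, a master factor of the response, read 6.51 and 7.35 in control and 7.53 and 7.69 in the labelled arrays (0.68, SE 0.45). Ifih1, a sensor of viral RNA, read 7.85 and 8.17 against 8.46 and 8.40 (0.43, SE 0.31), while Ifit2 read 7.49 and 6.19 against 6.32 and 6.22. The list median was 0.18, and 0.12 without both replicate 1 arrays. None passed. Actin and focal adhesion genes had 4 of 25 lower without overlap, among them Vcl, which encodes vinculin (-0.23, SE 0.20), and a median of -0.15, which was 0.00 without labelled Ovol1 KO replicate 1 and -0.00 without both replicate 1 arrays; Actb differed by -0.00 (SE 0.19). Glycolysis and hypoxia genes had 4 of 18 lower and 1 higher without overlap, with Ldha at -0.15 (SE 0.19). Their median was -0.13, and -0.28 without both replicate 1 arrays. Of 15 cholesterol synthesis genes, 14 had intervals within a 2-fold difference, beside 77.1% of all genes. In this list, 3 were higher and 2 lower without overlap, at a median of 0.06. Hair follicle genes (21 measured, median 0.08) had 2 higher without overlap, Lhx2 and Vdr, and the cell cycle inhibitor and p53 target list (17 measured, median -0.03) had 2 lower, Mdm2 and Plk2.

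The genes whose groups lay farthest apart were then taken by rule, ranked by the gap between the lowest array of the higher group and the highest array of the lower group. They were picked for this gap, so the values are a description. Inpp5d, a lipid phosphatase best known from blood cells, had the widest gap: its control arrays read 8.72 and 8.05, the labelled arrays 6.02 and 5.67. Its difference was -2.54 (SE 0.47, 95% interval -3.66 to -1.42), with a labelled mean of 5.84, near background, where the offset shapes the size. Cd80, a costimulatory ligand of antigen-presenting cells, read 8.94 and 8.56 against 7.53 and 7.65, and its second probe set gave a similar difference (-1.31 beside -1.16). Kdr, a receptor for vascular growth factor, read 9.19 and 8.77 against 7.96 and 7.84. For these 3 genes the gap between the groups was larger than the spread within either group. None passed (limma adjusted p = 0.999 for each).

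The other genes of the lower side were Nppb (a natriuretic peptide, -1.04), Dgkh (a diacylglycerol kinase, -1.06), Gcnt3 (a glycosyltransferase, -0.90), Wdfy1 (an endosomal protein, -0.82), Epgn, the imprinted gene Zdbf2 (-1.16) and the insulin receptor substrate Irs1 (-0.86). On the higher side, Vnn1, a pantetheinase, read 6.27 and 6.79 in control and 7.69 and 7.70 in the labelled arrays (1.17, SE 0.25). Lamp5, a membrane protein of the LAMP family, read 6.60 and 6.92 against 7.93 and 7.68 (1.04, SE 0.22). These 2 labelled pairs were tight. Wider labelled pairs, with replicate 1 the higher, were those of Ly6g6c (13.15 and 12.25, against 11.41 and 11.45), Plbd1 (10.21 and 8.28, against 7.71 and 7.42) and the claudin Cldn23 (10.04 and 8.48, against 7.59 and 7.96). Ddah2 (1.19), Lrrc26 (1.35), the metalloreductase Steap4 (0.52), Hsd3b7 (0.86) and Zfp503 (0.48) completed the 10, and Atp10b (1.66) was added by its unadjusted p. The hexamer CCGTTA, earlier described as a core of the Ovol1 recognition sequence, was searched on both strands of RefSeq promoter windows (GRCm38.p6, 250 bases before to 50 after a start). It was in 0 of 23 windows found for 19 of the 27 genes looked up, against 2.75% of all 32817 windows. Those looked up were these genes, Ovol1, Ovol2, Myc, Id2, Zeb1 and Notch1. No window was found for Ovol1, Myc or Zeb1. At a share of 2.75%, so few windows can hold no match without differing from the rest, so the 0 decides nothing.

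**Figure D4:**
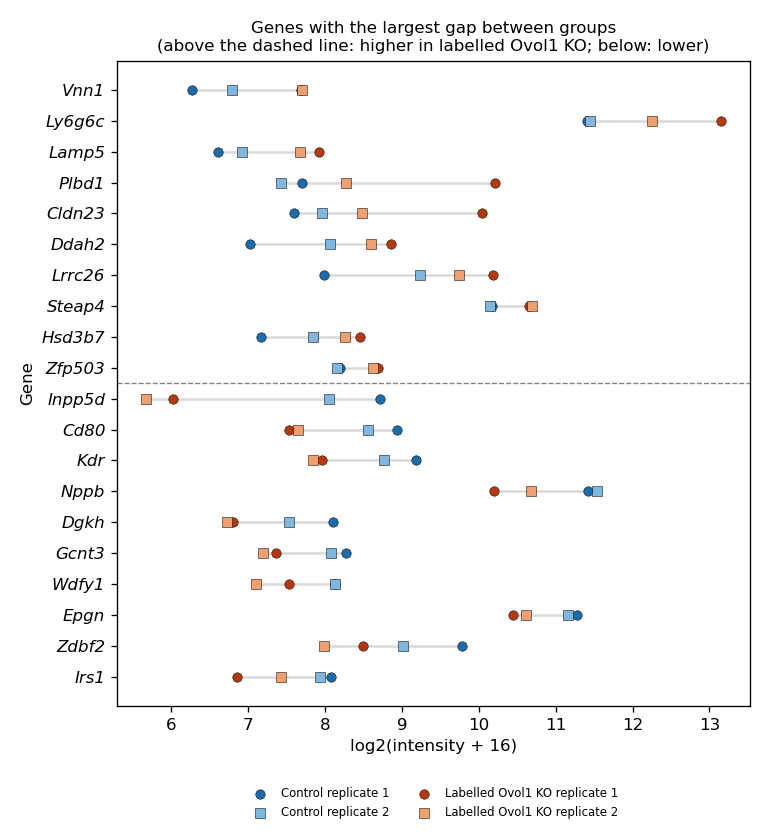
Level, log2(intensity + 16), on each of the 4 arrays for the 10 genes per direction with the largest gap between the groups; each point is 1 array. Inpp5d has the widest gap (8.72 and 8.05 in control, 6.02 and 5.67 in the labelled arrays), and several higher genes, such as Plbd1 and Cldn23, have labelled replicate 1 far above replicate 2.

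Cell type markers were then compared. The 10 keratinocyte markers were bright on average, at 11.85 and 11.70 in the controls and 11.66 and 11.65 with the label. Krt5 read 13.39 to 13.52, but Krt15 lay below 7.56, the median over all genes, on each of the 4 arrays. In such bulk samples, fewer cells of a type and less RNA per cell cannot be told apart. Beside Inpp5d and Cd80, the 9 leukocyte markers read 5.71 and 6.44 in control against 5.76 and 6.29 with the label. Ptprc, Cd207 and Cd74 were near background in both groups, and 1 marker, Cd207, was higher without overlap. Lyz2, the lysozyme of myeloid cells, differed most (-1.47, SE 0.97): control replicate 2 read 8.18 and the other 3 arrays 4.80 to 5.24. H2-Aa, a class II antigen-presenting molecule, differed by 0.36 (SE 0.56). Kdr is itself 1 of the 9 endothelial markers, which stood at 6.80 and 6.84 against 6.61 and 6.82. Besides Kdr, Pecam1 was lower without overlap (6.57 and 6.65 against 6.15 and 6.20), with a labelled mean near background. Cdh5 and Tek were near background in both groups. In all, 4 of the 9 were higher and 5 lower, with Plvap (0.46, SE 0.28) and Cldn5 (0.23, SE 0.27) on the higher side, both with overlap. The part of these cell types in the 3 differences was not tested. Melanocyte markers gave 4 of 9 lower without overlap, beside 10.3% of all genes. A difference above 0 was found for 3 of the 9, among them Mitf (0.14) and Kit (0.28), both with overlap. Dct, an enzyme of pigment synthesis, read 8.01 and 7.86 against 7.46 and 5.39, so that labelled Ovol1 KO replicate 2 was the lowest. Fibroblast markers followed the replicate number, 6.94 and 7.65 in control against 7.06 and 7.68 with the label (9 of 12 differences above 0, median 0.10). That median ran from -0.28 to 0.51 when 1 array was left out, below 0 without control replicate 1 or labelled Ovol1 KO replicate 2. The skeletal muscle (median -0.00), adipocyte (0.12), Schwann and Merkel (0.03) and erythroid (0.20) markers held no gene that passed.

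Genes that differed most between arrays of a group were named by rule too. Between the controls these were Xist, Lce1a1, Defb6, Sprr2i, Acod1, Kprp, Clca3b and Tspan1, all higher in replicate 2. Defb6, an antimicrobial beta-defensin, read 6.09 and 11.20, and Acod1, the itaconate-making enzyme of activated myeloid cells, 6.28 and 11.09. Between the labelled arrays the widest were the 3 Y-linked genes, Xist, Lce1a1, Acod1, Krtdap and Them5. Acod1 was low in replicate 1 and high in replicate 2 of both groups (6.83 and 12.01 in the labelled arrays), unlike the cornified genes, whose order turned round.

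Without both arrays that lack Xist signal, a single array per group remained, with spread taken from the Ovol1/2 DKO pair alone and assumed to hold for the lone arrays. In that fit 20 genes passed limma, all lower in labelled Ovol1 KO replicate 2 than in control replicate 2, among them Lce1a1 (-6.00), Lce3c (-3.81), Kprp (-3.09), Klk5 (-2.51) and S100a9 (-2.77). Of the 20, 5 are in the granular and cornified list and 2 in the stress and inflammation list. The granular list median was then -0.96, with 24 of 26 genes below 0, against 0.29 with all arrays. Replicate 1 of the 2 groups showed the opposite order for Kprp (6.50 in control, 11.50 labelled), Klk5 (6.23 and 9.43) and S100a9 (6.57 and 9.44). Without labelled Ovol1 KO replicate 2 alone, 3 genes passed, Eif2s3y, Uty and Gsdmc, each high only in labelled replicate 1 (Gsdmc, a gasdermin, 9.60 there and 5.45 to 5.88 elsewhere). For Zeb1, Epcam, Cdh1 and Krt14 the difference between the replicate 2 arrays alone was 0.15, 0.17, 0.08 and 0.02.

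**Figure D5:**
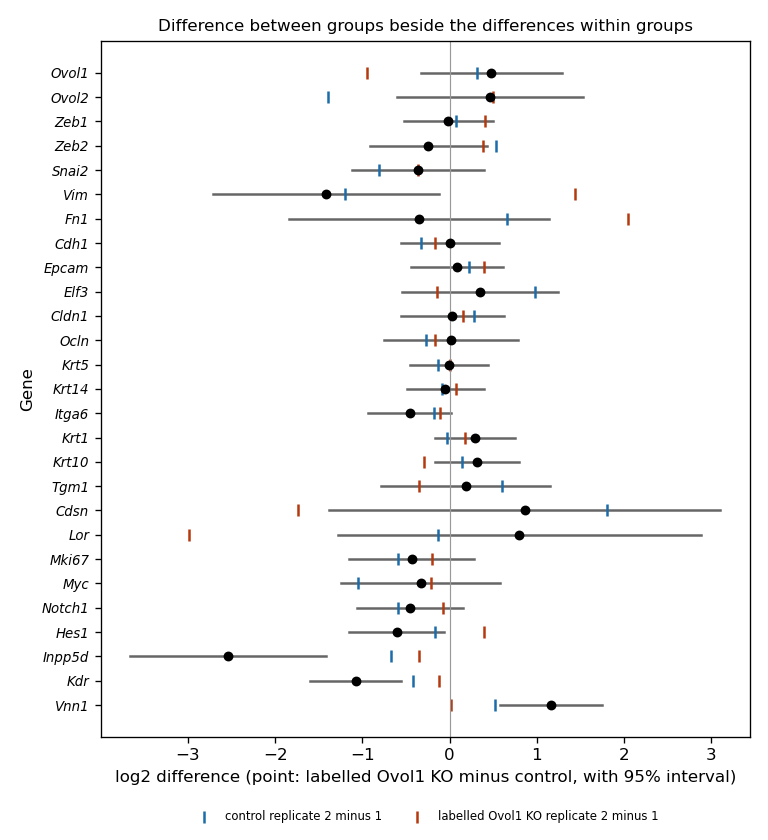
Log2 difference between labelled Ovol1 KO and control (black point) with its 95% interval from the limma fit (grey line), for 27 genes, beside replicate 2 minus replicate 1 of control (blue tick) and of the labelled arrays (red tick). For Inpp5d, Kdr and Vnn1 the point lies farther from 0 than both ticks, while for Cdsn, Lor and Fn1 a tick lies farther from 0 than the point.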

How the data were processed

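RNA of cultured keratinocytes was hybridised to one-colour Affymetrix arrays after whole-transcript amplification and biotin labelling, per the labels' protocols. The authors deposited a linear intensity for each probe set, made with Affymetrix Expression Console 1.1.1 and PLIER 2.0 per the submitters' processing notes. How background was corrected and arrays were normalized or filtered is not given in the sources used here. Of 35556 probe sets, 21789 had 1 gene symbol in the platform annotation, 1621 had several and were left out, and 12146 have none here. Entrez identifiers were used to bring symbols up to GRCm38.p6 names (91 without a match), and for 999 genes with several probe sets the brightest over the 6 arrays was used, leaving 19938 genes.

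The test was limma 3.58.1 in R 4.3.3 (lmFit, eBayes) on log2(intensity + 16) over all 6 arrays in 3 groups, with 3 residual degrees of freedom and Benjamini-Hochberg adjustment over all genes at a threshold of 0.05. It was also run on simulated data with independent normal noise on each array, which does not measure its sensitivity on these arrays. This scale understates changes of dim genes. The number of arrays limits the precision; the median standard error was 0.245. Gene lists are described by counts and medians, without set tests. Named were the targeted and sex-linked genes, the first 4 measured members of each list, 10 genes per direction by gap and 3 by unadjusted p (groups not overlapping, higher mean no lower than 7.56, the median over all genes, ordinary symbol), and 8 per group by within-group difference. Other list members named were chosen after their values were seen, as were genes passing without arrays. Members and lists were chosen with earlier results of these data known. Alternatives were a replicate block, leaving out arrays, only the groups compared, 2 other scalings, a smaller and a larger offset, a filter on dim genes, a fit to all probe sets, and eBayes or lmFit with a trend, robust or weighted. The arrays of a group are biological replicates per the labels, and no label says that a replicate number marks a shared day or litter.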

Additional observations from a re-analysis of the deposited data

How the results depend on the processing

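The count of 0 passing genes was kept under 15 of the 17 alternatives. It was 3 without labelled Ovol1 KO replicate 2 (0 to 3 over the arrays left out in turn) and 20 with both arrays without Xist signal left out, where each group keeps 1 array. With the replicate number as a replicate block no gene passed (smallest adjusted p = 0.895), and 715 genes had an unadjusted p under 0.05, against 153; with only the groups compared and the block there were 447. Deviations of same-numbered arrays from their group means correlated at 0.261 across genes; the arrays share only a number, so the unblocked model stands above. The count of genes whose difference exceeded both within-group differences was 1918, and 1147 with dim genes left out, where 14501 genes were tested. Ovol1 became -0.16 (-0.155) with both arrays without Xist signal left out. Ovol2 ran from -0.24 (-0.236) to 1.16 over the arrays left out in turn. Defb6, Sprr2i and Kprp became -3.75, -3.09 and -3.09 with both arrays without Xist signal left out. The cause was not tested for any of these. Genes with an unadjusted p under 0.05 numbered from 90 (dim genes left out) to 1014 (without control replicate 2). Of the 151 named genes, 94 changed sign when 1 array was left out, 53 with both arrays without Xist signal left out, and 5 under another setting, those 5 with a difference of at most 0.069. None of the 18 named genes with an unadjusted p under 0.05 changed sign under another setting. All 18 had groups that did not overlap, so leaving out arrays could not change their sign. The fit to all probe sets gave counts only. The median changed sign when 1 array was left out for 16 of 22 programme lists and 7 of 9 marker lists.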
